A study of Mus musculus with 3 samples.

Results

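The genes described here are a named set of angiogenic genes: the ligands Vegfa, Vegfb, Vegfc, Adm and Angpt2, the receptors Flt1 and Kdr, the co-receptors Nrp1 and Nrp2, and the regulator Hif1a. They were chosen by symbol, and all 10 are in the feature list of each of the 3 libraries, a small part of the genes counted there (7732 reached 10 CPM, defined below, in a culture). In the study, mice received human graft materials under the skin, and bone marrow cells were grown in culture. For the graft library (hSTSG), human split-thickness skin was placed subcutaneously in C57BL6/J mice and taken out after 14 days, and cells from 5 mice were pooled into 1 droplet library with no map from cells to mice. For the culture libraries, bone marrow of C57/BL6 mice was grown with GM-CSF at 200 U/ml to day 7 and then left untreated (Co-Mac) or given VD3, 1,25-dihydroxycholecalciferol, the active hormone form of vitamin D, at 1e-06 M for 24 hours (VD-Mac). The feature list holds mouse genes alone, so no human genes of the graft were counted. Whether human reads were counted under mouse genes was not tested.

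VEGF-A is the main secreted signal that makes vessels sprout, and many cells make more of it when oxygen is short, through the transcription factor subunit HIF-1 alpha that Hif1a encodes. On endothelial cells it is read by the receptor tyrosine kinases FLT1 and KDR with the neuropilins NRP1 and NRP2 as co-receptors, while angiopoietin 2 and adrenomedullin, the products of Angpt2 and Adm, act on vessels through receptors of their own. Macrophages and other myeloid cells in healing tissue are known sources of VEGF-A.

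Reads of a cell share a barcode, and UMIs (unique molecular identifiers) tag single RNA molecules, so a gene's UMIs count its molecules. The deposited tables held 136905324 gene UMIs in 7866 barcodes for Co-Mac, 124731240 in 9794 for VD-Mac and 24472168 in 2644 for hSTSG. Cells with at least 300 genes, fewer than 100000 gene UMIs and under 10% mitochondrial UMIs were kept. These were 7257 cells with a median of 15804 UMIs, 8825 with a median of 12089, and 2144 with a median of 6637.5. Levels are CPM, a gene's UMIs per 1e6 gene UMIs summed over the same cells, and ratios are given as log2. The 95% intervals are exact and cover counting error only. Each group is 1 library, so no test was made and no p-value is given. A gene is called higher or lower where it differs by 2-fold or more and reaches 10 CPM in the higher group. Barcodes shared between libraries were few: 15 between the cultures, 3 between Co-Mac and hSTSG, and 6 between VD-Mac and hSTSG.

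The cultures are labelled macrophages, and their markers show a mixture. Of the 7 macrophage markers 6 reached 10 CPM in each culture, with a summed level of 747 CPM in Co-Mac and 1042 CPM in VD-Mac and C1qb as the most abundant. All 6 markers of the Trem2 macrophage set did so in both, with sums of 5412 and 3248 CPM and Fabp5 as the most abundant. Of the 6 mature dendritic cell markers, 6 did so in Co-Mac and 5 in VD-Mac, with sums of 2328 and 2494 CPM and Ccl22 as the most abundant. Clustered together, the cultures gave a mature dendritic cell-like class with 2633 and 3316 cells, a macrophage-like class with 1040 and 1207, a neutrophil-like class with 888 and 1025, and small classes like conventional dendritic cells (80 and 118) and like mast cells or basophils (59 and 75). A monocyte-like cluster was almost all Co-Mac, with 1554 cells against 4, and 7 clusters stayed unnamed, which held 13.8% of Co-Mac cells and 34.9% of VD-Mac cells. None of the 6 endothelial markers reached 10 CPM in either culture. Their sums were 11.3 CPM in Co-Mac, led by Vwf, and 9.34 CPM in VD-Mac, led by Pecam1, and Cldn5 had no UMI. In the graft all 6 did, with a sum of 190.1 CPM.

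Between the cultures, Vegfa was the 1 member called higher with VD3. Of the 10 members 4 reached 10 CPM in at least 1 culture (Vegfa, Hif1a, Nrp1 and Nrp2). Of these, 1 was called higher with VD3 and 0 lower. Over all 7732 genes that reached 10 CPM, 2.16% were called higher and 4.63% lower, and the median log2 ratio was -0.10. The median of the 4 members was 0.42. A treatment check gave Cyp24a1, which encodes the enzyme that breaks down active vitamin D and is a classic target of its receptor, at 1 UMI in Co-Mac (0.00754 CPM) and 36662 UMIs in VD-Mac (315 CPM).

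**Figure D1:**
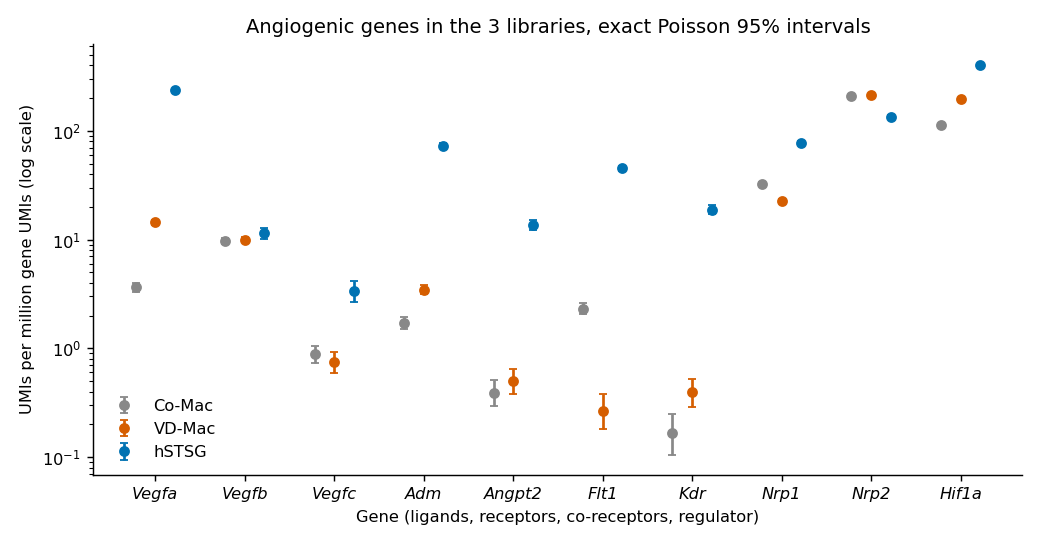
Level of each member in CPM (log axis) in the 3 libraries, with exact Poisson 95% intervals as bars. Vegfa stands at 3.64 in Co-Mac, 14.4 in VD-Mac and 238 in hSTSG, while Nrp2 is at 208, 213 and 134.

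Among the ligands, Vegfa (ENSMUSG00000023951) had 483 UMIs in Co-Mac, 1681 in VD-Mac and 5391 in hSTSG. These are levels of 3.64 CPM (3.33 to 3.98), 14.4 CPM (13.8 to 15.1) and 238 CPM (232 to 244). The culture with VD3 was 3.96-fold above the untreated culture, a log2 ratio of 1.99 (1.84 to 2.14). With a minimum of 50 CPM in place of 10 CPM Vegfa is not measured and the call ends. Thinned to 2000 UMIs, which left out 472, 1149 and 301 shallower cells, 0.899% of Co-Mac cells, 2.70% of VD-Mac cells and 24.4% of graft cells held a Vegfa UMI. Without thinning the shares were 4.85%, 12.8% and 44.2%. Conventional dendritic cell-like cells of the cultures had 0 of 80 and 0 of 118 thinned cells with a Vegfa UMI, at median depths of 13671.5 and 11884 UMIs. Without thinning 1 of 80 and 4 of 118 held a Vegfa UMI, so the 0 sets no limit on cells that express it. These are too few cells to serve as a background.

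The other ligands were too low in the cultures to be called. Vegfb, a ligand of FLT1 tied to heart and fat tissue, lay at 9.69 CPM in Co-Mac, 9.99 CPM in VD-Mac and 11.4 CPM in hSTSG, with overlapping intervals in the cultures (log2 0.04, -0.07 to 0.16). Vegfc, the main growth factor for lymphatic vessels, had 117, 87 and 76 UMIs, or 0.883, 0.747 and 3.36 CPM, and its culture ratio of -0.24 had an interval from -0.66 to 0.17. Adm, which encodes the vessel-widening peptide adrenomedullin, stood at 1.72 CPM in Co-Mac, 3.47 CPM in VD-Mac and 73.1 CPM in hSTSG. Its culture log2 ratio of 1.01 (0.77 to 1.25) stayed under the level needed for a call. Angpt2, which encodes a ligand of the endothelial receptor TEK that loosens vessels, had 52, 58 and 309 UMIs, or 0.392, 0.498 and 13.6 CPM, with a culture ratio of 0.34 (-0.22 to 0.91). So all 5 ligands had their highest level in the graft library, with intervals apart from the cultures for all but Vegfb, whose graft interval of 10.04 to 12.9 CPM overlaps those of both cultures. For Vegfb and Vegfc this changes when cells are thinned. Thinned to 2000 UMIs, Vegfb is at 9.21, 9.84 and 6.24 CPM, lowest in the graft, with shares of 1.81%, 1.94% and 1.19%. Graft Vegfc is then at 1.09 CPM, and its thinned share of 0.217% (0.0592 to 0.555) overlaps those of the cultures, 0.162% and 0.169%.

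The receptors were near 0 in the cultures. Flt1 had 307 UMIs in Co-Mac and 31 in VD-Mac, or 2.32 and 0.266 CPM, against 45.1 CPM in hSTSG. The culture log2 ratio was -3.12 (-3.70 to -2.59), at a level too low for a call. Most of the untreated UMIs came from a macrophage-like cluster (127 UMIs), the monocyte-like cluster (122) and an unnamed cluster (51), and the last pair held 4 and 2 VD-Mac cells. Kdr, the main signalling receptor for VEGF-A on endothelium, had 22 and 46 UMIs in the cultures and 426 in hSTSG, or 0.166, 0.395 and 18.8 CPM. Its culture log2 ratio was 1.25 (0.49 to 2.05), opposite in sign to that of Flt1, and -0.23 under 5% mitochondrial UMIs. Over 7 alternatives the graft level of Kdr went as low as 12.3 CPM. With endothelial markers at the low levels given above, the part of any other cell in the few culture UMIs of Flt1 and Kdr was not tested.

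The co-receptors were well measured in the cultures. Nrp1, which binds VEGF-A and class 3 semaphorins, lay at 32.7 CPM in Co-Mac, 22.6 CPM in VD-Mac and 77.5 CPM in hSTSG, with a culture ratio of -0.53 (-0.60 to -0.46). Nrp2, which also binds VEGF-C, lay at 208, 213 and 134 CPM, with a culture ratio of 0.04 (0.02 to 0.06). As filtered, Nrp2 was the member whose graft level was below both cultures, but under 5% mitochondrial UMIs it lay at 139, 125 and 123 CPM, close together. Hif1a, the regulator, lay at 114 CPM in Co-Mac (112 to 116), 198 CPM in VD-Mac (195 to 200.3) and 407 CPM in hSTSG (399 to 415). Its culture ratio of 0.79 (0.77 to 0.82), or 1.74-fold, did not reach the fold for a call.

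With a limit of 5% mitochondrial UMIs the Nrp1 ratio was -1.01 (20.6 and 10.2 CPM) and passed the fold, and the Hif1a ratio was 0.47. With equal weight to each named class the Flt1 ratio was -0.63, and with each cell weighted equally the Adm ratio was 0.35. The ratios of Vegfb, Vegfc, Nrp2, Kdr and Angpt2, none of them called, changed sign under at least 1 of 9 alternatives. For a library, a change within cells and a change in which cells were present cannot be told apart, so the next values are within classes.

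Within culture classes Vegfa was higher with VD3 in the macrophage-like and the mature dendritic cell-like cells. Both classes are made of different clusters in Co-Mac and VD-Mac, so a response and a difference between cells cannot be told apart there. In the named classes that are a single cluster with cells of both cultures, Vegfa was not called. In macrophage-like cells, 4 members reached 10 CPM and 2 were called higher, Vegfa and Hif1a, where 4.74% of all genes were called higher. Vegfa rose from 2.65 to 21.6 CPM there (61 and 446 UMIs), a log2 ratio of 3.03 (2.64 to 3.44). In mature dendritic cell-like cells 1 of 4 was called higher, where 2.3% of all genes were. Vegfa rose from 2.24 to 12.6 CPM (92 and 626 UMIs), a log2 ratio of 2.49 (2.17 to 2.82). Neutrophil-like cells, known to carry VEGF-A, had the highest untreated Vegfa level of these classes, 19.2 CPM (83 UMIs), and 32.6 CPM with VD3 (118 UMIs), a ratio of 0.76 (0.35 to 1.19) that was not called. Of 3 members measured there, 0 were called in either direction, where 1.71% of all genes were called higher and 2.42% lower. Thinned shares of cells with a Vegfa UMI were 0.769% and 3.73% in macrophage-like cells, 0.532% and 2.45% in mature dendritic cell-like cells, and 4.84% and 6.06% in neutrophil-like cells. The conventional dendritic cell-like cells had 1 and 4 Vegfa UMIs (log2 1.59, -1.74 to 7.22) and the mast cell- or basophil-like cells 1 and 6 (2.46, -0.59 to 7.98), too few to give a direction.

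**Figure D2:**
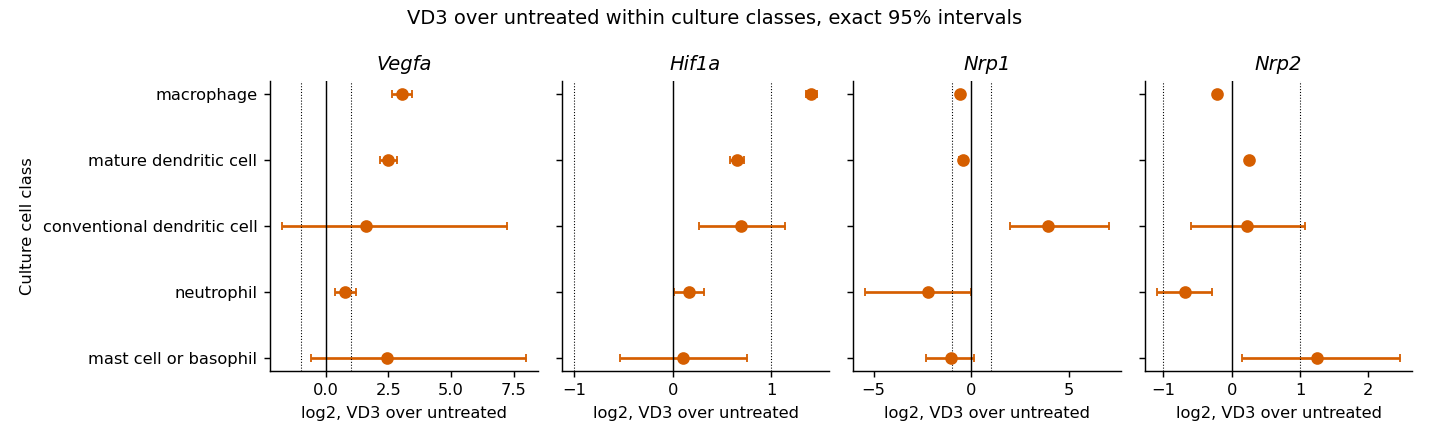
Log2 ratio of VD3 over untreated within 5 culture classes for Vegfa, Hif1a, Nrp1 and Nrp2, with exact 95% intervals as bars and dotted lines at a 2-fold difference. Vegfa is at 3.03 in macrophage-like and 2.49 in mature dendritic cell-like cells, and Nrp1 at 3.92 in conventional dendritic cell-like and -0.56 in macrophage-like cells.

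Hif1a was called higher in 1 of the 5 classes. In macrophage-like cells it rose from 146 to 388 CPM, a log2 ratio of 1.41 (1.35 to 1.46), and the thinned share of cells with a UMI went from 25.2% to 46.8%. In mature dendritic cell-like cells it stood at 60.0 and 94.5 CPM (0.66, 0.59 to 0.73), in conventional dendritic cell-like cells at 58.0 and 94.0 CPM (0.70, 0.27 to 1.14), and in neutrophil-like cells at 172 and 193 CPM (0.17, 0.02 to 0.32). So the class where Vegfa and Hif1a both passed the fold was the macrophage-like class, while in mature dendritic cell-like cells Vegfa alone did.

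The neuropilins moved in different directions in different classes. Nrp1 was at 70.6 and 47.8 CPM in macrophage-like cells (-0.56, -0.68 to -0.45) and at 10.4 and 7.78 CPM in mature dendritic cell-like cells (-0.42, -0.62 to -0.21). In conventional dendritic cell-like cells it rose from 1.73 to 26.1 CPM, from 2 to 40 UMIs, a log2 ratio of 3.92 (1.97 to 7.01). It was the 1 of 3 members called higher in that class, where 8.9% of all genes were called higher and 7.1% lower. In mast cell- or basophil-like cells 1 of 4 members was called higher (Nrp2, 15.2 and 36.1 CPM from 10 and 26 UMIs) and 1 lower (Nrp1, 28.8 and 13.9 CPM from 19 and 10 UMIs). In that class 8.9% and 6.92% of all genes were called, and the interval of the Nrp1 ratio (-2.32 to 0.12) includes 0. For each gene 6 of 59 and 6 of 75 of these cells held a UMI, and the thinned shares ran the other way (Nrp2 1.89% and 1.45%, Nrp1 3.77% and 4.35%), so no direction is read for either gene there. Nrp2 lay at 357 and 308 CPM in macrophage-like cells (-0.21) and at 179 and 213 CPM in mature dendritic cell-like cells (0.25). No member was called lower in macrophage-like or mature dendritic cell-like cells, where 5.86% and 2.48% of all genes were.

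Low members also differed within macrophage-like cells. Flt1 had 127 UMIs in untreated and 10 in VD3-treated macrophage-like cells, or 5.51 and 0.484 CPM (-3.51, -4.60 to -2.58). Adm had 2 and 49 UMIs there, or 0.0868 and 2.37 CPM (4.77, 2.84 to 7.86), while mature dendritic cell-like cells, which held most Adm UMIs of both cultures, had 4.60 and 5.83 CPM. In macrophage-like cells Kdr had 6 and 23 UMIs (2.10, 0.76 to 3.68) and Angpt2 had 5 and 14 (1.64, 0.09 to 3.47). All of these stayed under 10 CPM and were not called. The macrophage-like class is made of different clusters in the cultures, 1 with 1039 of its 1040 Co-Mac cells and 1 with 1203 of its 1207 VD-Mac cells, and the mature dendritic cell-like class likewise (2624 of 2633 and 3304 of 3316). A response of like cells and a difference between the cells compared cannot be told apart there. The neutrophil-like, conventional dendritic cell-like and mast cell- or basophil-like classes are each 1 cluster that holds cells of both cultures.

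An unnamed cluster with 97 Co-Mac and 1069 VD-Mac cells, led by the granulocyte precursor gene Prtn3 and by Cyp24a1 and Plac8, had a lower Vegfa level with VD3, which was not called. Its level was 23.3 CPM in Co-Mac (58 UMIs) and 11.7 CPM in VD-Mac (315 UMIs), a log2 ratio of -0.996 (-1.40 to -0.57). In the same cluster Hif1a was at 60.3 and 251 CPM, Nrp1 at 3.22 and 37.5 CPM, and Nrp2 at 14.5 and 195 CPM. The cells of this cluster made up 1.34% of Co-Mac and held 12.01% of its Vegfa UMIs. As the cluster holds so few Co-Mac cells, a response and a difference between the cells compared cannot be told apart here either.

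Genes of the wider pathway were read from 9 lists with 74 symbols, of which 73 are in the feature list. Of 29 that reached 10 CPM in a culture, 2 were called higher with VD3 (2.16% of all genes), 1 lower (4.63%) and 26 neither. Their median log2 ratio was -0.03. Both of the higher genes were among 5 measured growth factors, whose median was 0.57. Hbegf, which encodes a heparin-binding ligand of the EGF receptor, rose from 4.34 to 74.3 CPM, or 17.1-fold (log2 4.10, 3.98 to 4.22), and was called higher in each of the 5 classes, with log2 ratios from 1.75 in neutrophil-like to 5.95 in conventional dendritic cell-like cells. Pdgfb, which encodes the growth factor chain that draws pericytes to vessels, rose from 12.8 to 42.9 CPM (1.75, 1.67 to 1.83), and was called higher in 2 of the 5 classes, at 1.93 in mature dendritic cell-like and 2.09 in mast cell- or basophil-like cells (3 and 14 UMIs). Its ratio was 0.995 in conventional dendritic cell-like and 0.86 in macrophage-like cells, and -1.33 from 3 and 1 UMIs in neutrophil-like cells (-7.04 to 2.31). The gene that fell was Pgf, a VEGF family ligand of FLT1, from 11.01 to 4.22 CPM (-1.38, -1.53 to -1.23), the 1 gene measured of the other VEGF ligands and receptors. Pgf was called lower in none of the 5 classes, with ratios of -0.68 in macrophage-like, -0.88 in conventional dendritic cell-like and 0.15 in neutrophil-like cells. In mature dendritic cell-like cells the ratio was -1.41 (-2.66 to -0.28) from 22 and 10 UMIs, under 10 CPM, and mast cell- or basophil-like cells had 1 and 0 UMIs. Of the 1460 Co-Mac UMIs of Pgf, the macrophage-like, conventional dendritic cell-like and neutrophil-like classes held 306, 50 and 43. Most thus lay in cells outside the 5 classes.

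The remaining lists had no called gene in the cultures. Of the 10 hypoxia-inducible targets measured 0 were called, with a median of -0.09. The most abundant of them, Ldha, which makes lactate from pyruvate, was at 517 and 334 CPM (-0.63). The 5 HIF subunits and regulators measured had a median of 0.08, and the most abundant, Vhl, whose product marks HIF-1 alpha for breakdown, was at 53.7 and 51.8 CPM. With 2.16% of all genes called higher and 4.63% lower, counts of 0 in lists of this size are not a result about them. The other lists are given by the gene with most UMIs, as Co-Mac and VD-Mac levels: Ramp1 of the adrenomedullin receptor list at 62.2 and 106 CPM, Plxnd1 of the semaphorin and plexin list at 118 and 146 CPM, Pf4 of the angiogenesis inhibitors at 556 and 290.2 CPM, Notch1 of the endothelial response list at 72.1 and 48.6 CPM, Tgfb1 of the growth factors at 226 and 216 CPM, and Angptl2 of the angiopoietin list at 5.61 and 3.0997 CPM.

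In the graft, the members differed in their leading cell type. Graft cells were clustered without the members and listed genes among the variable genes, and the clusters were named by markers, so each name below carries -like. The types with at least 25 cells were neutrophil-like (516 cells), Trem2 macrophage-like (330), T or NK cell-like (301), monocyte-like (287), Cd163 Mrc1 macrophage-like (193), fibroblast-like (143), conventional dendritic cell-like (74), B lineage-like (38), mature dendritic cell-like (36) and endothelial-like (25). Another 13 cells were mast cell- or basophil-like, and clusters of 150 and 38 cells with few UMIs (medians of 1806.5 and 668) stayed unnamed. Each type was set against all other kept graft cells, as a description. Members called higher numbered 4 of 9 measured in endothelial-like cells (25.0% of all genes were), 3 of 9 in Cd163 Mrc1 macrophage-like (8.13%), 2 of 10 in fibroblast-like (19.6%), 1 of 9 in Trem2 macrophage-like (4.44%), 1 of 9 in mature dendritic cell-like (13.4%) and 1 of 10 in mast cell- or basophil-like cells (11.6%). Calls lower were not counted in the graft. Vegfc was measured in fibroblast-like and mast cell- or basophil-like cells only, where it was high. Several of these shares are near the background, so the levels of each gene say more than the counts. No member was called higher in T or NK cell-like (23.4% of all genes were), B lineage-like (14.2%), neutrophil-like (12.6%), conventional dendritic cell-like (7.03%) and monocyte-like cells (4.26%).

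**Figure D3:**
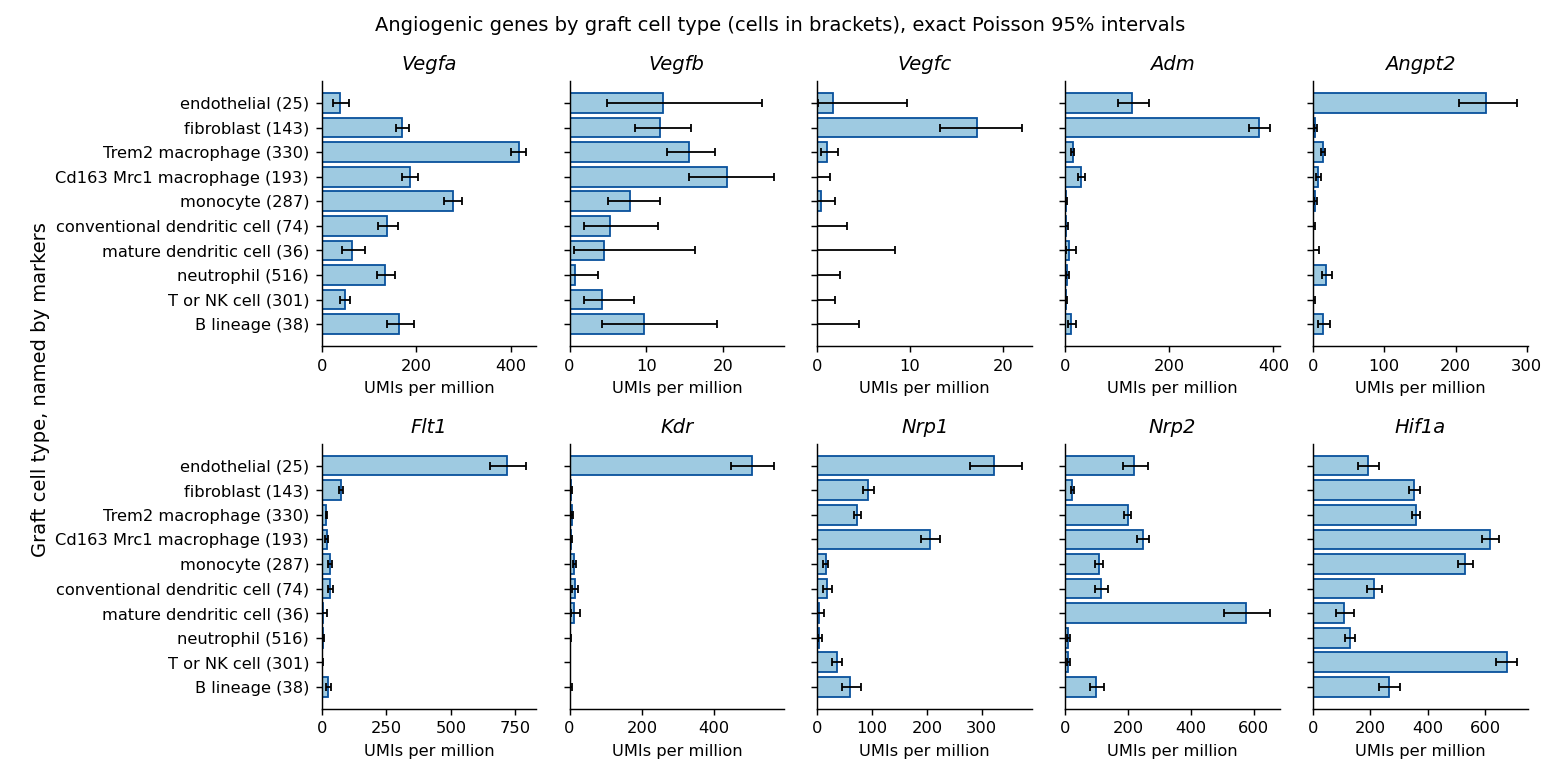
Level of each member in CPM (each panel has its own axis from 0) in graft cell types with at least 25 cells, with exact Poisson 95% intervals. Kdr reaches 504 in endothelial-like cells and at most 14.1 in the other types drawn, while Vegfa has UMIs in every type, from 38.2 in endothelial-like to 416 in Trem2 macrophage-like cells.

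Vegfa had UMIs in all graft types named, with Trem2 macrophage-like cells on top. Trem2 macrophage-like cells, which carry the Gpnmb and Spp1 markers of lipid-handling macrophages, had 416 CPM (400.4 to 432), a log2 ratio of 1.31 (1.23 to 1.39) over other graft cells, and held 49.6% of the Vegfa UMIs of the graft in 15.4% of its cells. Monocyte-like cells followed at 277 CPM (258 to 297), apart from the next types of 25 or more cells, and the 13 mast cell- or basophil-like cells had 255 CPM from 16 UMIs (146 to 415). Cd163 Mrc1 macrophage-like cells (186 CPM, 170.2 to 202.7), fibroblast-like cells (169.6 CPM, 157 to 184) and B lineage-like cells (164 CPM, 138 to 194) overlapped one after another, and so did conventional dendritic cell-like (139 CPM, 118 to 162) and neutrophil-like cells (134 CPM, 116 to 154). The lowest were mature dendritic cell-like (63.6 CPM, 42.3 to 92.0), T or NK cell-like (48.7 CPM, 39.3 to 59.8) and endothelial-like cells (38.2 CPM, 23.9 to 57.8), again with overlapping neighbours. Endothelial-like cells, the target tissue of VEGF-A, were thus not above the T or NK cell-like cells. The B lineage-like cells carried all 7 macrophage markers (sum 1999 CPM, led by C1qa at 635 CPM) and 5 of 6 pericyte or smooth muscle markers (sum 457 CPM, led by Acta2 at 248 CPM, Kcnj8 at 0), and the part of other cells in their level was not tested. Thinned to 2000 UMIs, 45.7% of Trem2 macrophage-like cells held a Vegfa UMI (87.6% without thinning) against 6.44% of T or NK cell-like cells. The cells that could be thinned had median depths of 16197.5 and 5614 UMIs. No type here is known to lack Vegfa, and the T or NK cell-like clusters themselves differed (60.4 and 29.5 CPM), so no background level was set.

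Within the Trem2 macrophage-like cells Vegfa was spread over many cells: 41 of 330 had no UMI, the highest cell had 47, and the top 33 cells held 36.2% of the UMIs. How far this type led depended on where the clusters were drawn. At resolution 0.8 the Trem2 name fell to 72 cells with a ratio of 0.19 and 268 CPM, and 159 cells were named macrophage-like with 452 CPM, 156 of them from the 330. The pair together had 383 CPM and a ratio of 0.98. With the highest Scrublet doublet scores removed, 191 Trem2 macrophage-like cells had a ratio of 0.72 and 359 CPM beside 158 macrophage-like cells with 468 CPM, together 411 CPM and a ratio of 1.29. The 2-fold call for the Trem2 name ends under both, and the macrophage-named neighbour then leads.

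Types made of more than 1 cluster were not uniform for Vegfa. Of the Cd163 Mrc1 macrophage-like clusters, the larger (128 cells, led by Cd163) had 219 CPM and the smaller (65 cells, led by C6 and Lyve1) 109 CPM, a log2 ratio of 1.01 (0.68 to 1.35). The same pair had Vegfb at 26.8 and 6.05 CPM (2.15, 0.83 to 3.83), Hif1a at 732 and 348 CPM (1.07, 0.89 to 1.26), and Flt1 at 26.8 and 2.42 CPM (3.47, 1.54 to 6.55). In the opposite order were Nrp1 at 174 and 278 CPM (-0.67, -0.92 to -0.43) and Adm at 24.7 and 44.7 CPM (-0.86, -1.51 to -0.20). Of the neutrophil-like clusters, the larger (476 cells) had Vegfa at 161 CPM and the smaller (40 cells, led by the granule genes Ngp, Camp and Ltf of younger neutrophils) at 43.5 CPM (1.89, 1.13 to 2.76). The larger cluster had the higher Vegfa level also in T or NK cell-like cells (178 cells at 60.4 CPM, 123 cells at 29.5 CPM, log2 1.04, 0.32 to 1.81).

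The other ligands had other leading sources. Vegfb was highest in Cd163 Mrc1 macrophage-like cells at 20.6 CPM (15.6 to 26.7, log2 1.02), overlapping Trem2 macrophage-like cells at 15.6 CPM (12.7 to 18.9), and neutrophil-like cells had 1 UMI. Its 2-fold call in the Cd163 type ends with ratios between 0.92 and 0.99 at resolutions 0.3 and 0.8, with the listed genes kept as variable genes, and under 5% mitochondrial UMIs. A macrophage-named type leads in its place at resolution 0.8 and with the highest Scrublet scores removed, each time at 24.7 CPM. Vegfc was a fibroblast-like gene: those cells had 17.2 CPM (13.2 to 22.1) and 82.9% of its 76 UMIs, a ratio of 4.65. The 13 mast cell- or basophil-like cells had 63.8 CPM from 4 UMIs (17.4 to 163). Under 5% mitochondrial UMIs, with clusters drawn anew, that name covers at least 25 cells and leads with 31.0 CPM. B lineage-like, Cd163 Mrc1 macrophage-like, T or NK cell-like, both dendritic cell-like and neutrophil-like types had no Vegfc UMI. Taken as 3 counts, this allows up to 1.08 CPM in the Cd163 type and 6.82 CPM in mature dendritic cell-like cells. The exact limit in the latter is 8.39 CPM.

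Adm was likewise mainly from fibroblast-like cells, at 373 CPM (353 to 393) with 82.3% of the UMIs and a log2 ratio of 4.59 (4.41 to 4.78). Endothelial-like cells followed at 128.5 CPM (101 to 161) and Cd163 Mrc1 macrophage-like cells at 30.7 CPM (24.5 to 37.9). A small part of the cells carried much of the signal: the top 15 of 143 fibroblast-like cells held 49.9% of their Adm UMIs, with 99 in 1 cell, and 42 had none. Thinned, 27.0% of fibroblast-like cells held an Adm UMI (70.6% without thinning, median depth of the cells thinned 25429) against 0.339% of T or NK cell-like cells. Fibroblast-like cells are the deepest type. The graft level of Adm is 33.1 CPM with each cell weighted equally and 31.7 CPM thinned, in place of 73.1 CPM, and the part of depth in this was not tested.

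Angpt2 was a gene of endothelial-like cells, at 243 CPM (205 to 287) with 45.3% of its UMIs and a ratio of 4.99 (4.66 to 5.32). The spread was uneven: 3 of the 25 cells held 54.3% of their 140 Angpt2 UMIs, 41 lay in 1 cell, and 10 cells had none. Neutrophil-like cells were next at 18.1 CPM (11.9 to 26.4), with all 27 UMIs in the larger of their clusters. Trem2 macrophage-like and B lineage-like cells each had 13.4 CPM.

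The receptors marked the endothelial-like cells. Flt1 reached 719 CPM there (651 to 792), a log2 ratio of 4.71 (4.52 to 4.89), and Kdr 504 CPM (447 to 565), a ratio of 6.35 (6.05 to 6.66). These 25 cells, 1.17% of the graft, held 40.5% of Flt1 and 68.1% of Kdr UMIs, and 3 of them held 34.3% and 45.9% of those. Thinned, 48.0% of them had a Flt1 UMI and 64.0% a Kdr UMI, against 0.339% and 0% of 295 T or NK cell-like cells. The 0 allows up to 1.02% of cells with a Kdr UMI at this depth (3 counts of the cells thinned). It sets no limit on cells that express Kdr. Flt1 was also seen at 73.6 CPM in fibroblast-like cells (65.1 to 82.9), with 26.3% of its UMIs, and at 32.5 and 32.4 CPM in conventional dendritic cell-like and monocyte-like cells. A single graft cell outside the endothelial-like type held 116 of the 1022 Flt1 UMIs, and the highest endothelial-like cell held 49. The next highest Kdr levels were 14.1, 13.6 and 12.97 CPM in conventional dendritic cell-like, mature dendritic cell-like and monocyte-like cells.

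The endothelial-like cluster is small and carries markers of its neighbours. All 6 endothelial markers were found in it, with a sum of 4426 CPM led by Cdh5 (1316 CPM). All 6 pericyte or smooth muscle markers were found too, with a sum of 1002 CPM led by Rgs5 (729 CPM), and 5 of 6 fibroblast markers, with a sum of 1005 CPM led by Col3a1 (517 CPM) and Lum at 0. Their part in the values of this cluster was not tested. In fibroblast-like cells 5 of 6 endothelial markers were found, with a sum of 39.1 CPM led by Pecam1 (35.6 CPM) and Cldn5 at 0. With under 5% mitochondrial UMIs 15 of the endothelial-like cells remain and without the highest Scrublet scores 21, and the Flt1 ratio is then 4.83 and 4.94, the Kdr ratio 6.63 and 6.58.

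Nrp1 was shared by vessels and a macrophage type. Endothelial-like cells had 323 CPM (278 to 373, log2 2.18), Cd163 Mrc1 macrophage-like cells 205 CPM (189 to 223, log2 1.78), and the latter held 32.4% of its UMIs. Fibroblast-like cells had 92.5 CPM and Trem2 macrophage-like cells 72.8 CPM, while monocyte-like cells had 15.0 CPM and neutrophil-like cells 3.35 CPM. Within the monocyte lineage, Nrp1 thus lay in the macrophage types and was low in the monocyte-like type. With each cell weighted equally the graft level of Nrp1 was 45.4 CPM in place of 77.5 CPM.

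Nrp2 had another leading type, the mature dendritic cell-like cells, at 575 CPM (506 to 651) with a ratio of 2.20 (2.01 to 2.39) and a thinned share of 69.7%. Nrp2 is known on mature dendritic cells, where its sugar chains matter for migration. Cd163 Mrc1 macrophage-like cells followed at 247 CPM (229 to 266, log2 1.07), then endothelial-like cells at 221 CPM (184 to 262) and Trem2 macrophage-like cells at 199 CPM (188 to 210.4), with overlapping neighbours. Fibroblast-like cells had 23.0 CPM, neutrophil-like cells 9.39 CPM and T or NK cell-like cells 9.003 CPM. At resolution 0.3 the mature dendritic cell-like name covers 106 cells and the ratio is 0.96, which ends the call.

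Hif1a was broad. Its highest levels were 675 CPM in T or NK cell-like cells (638 to 713) and 618 CPM in Cd163 Mrc1 macrophage-like cells (589 to 648), which overlap and change order (705 CPM in the latter leads) with each cell weighted equally. Monocyte-like cells had 531 CPM (505 to 558), Trem2 macrophage-like 358 CPM (344 to 373) and fibroblast-like 353 CPM (334 to 373). B lineage-like cells had 265 CPM, conventional dendritic cell-like 213 CPM, endothelial-like 191 CPM, neutrophil-like 127 CPM and mature dendritic cell-like 109 CPM. No type was called 2-fold higher, though under 5% mitochondrial UMIs the T or NK cell-like ratio of 0.82 becomes 1.02 and passes the fold, and the order is not that of Vegfa: Trem2 macrophage-like cells lead for Vegfa and are not among the 3 types highest in Hif1a. Hif1a is regulated largely at the level of its protein, which was not measured.

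Among the pathway lists in the graft, 6 of 12 hypoxia-inducible targets were called higher in Trem2 macrophage-like cells (Slc2a1, Pgk1, Ldha, Bnip3, Ankrd37 and Ero1l). The count is partly set by the filter: Ankrd37 lay at 9.01 CPM in the whole graft and was measured through its level in these cells. Pgk1, a glycolytic enzyme gene, had 784 CPM there against 444 CPM in the next type, and Bnip3, a mitochondrial clearance gene, 160.1 CPM against 116 CPM. In mature dendritic cell-like cells 4 of 11 were called higher (Ndrg1, Pfkfb3, Ddit4 and Mxi1), with Pfkfb3, an activator of glycolysis, at 268 CPM. Trem2 macrophage-like cells had the highest level for 4 of the 12 targets (Pgk1, Ldha, Bnip3 and Ero1l), and the other 8 were led by other types, among them Slc2a1 and Ankrd37 by neutrophil-like cells. For both genes the interval overlaps that of the next type, which for Slc2a1 is the Trem2 type (155 and 151 CPM). Of all genes 4.44% were called higher in the Trem2 type and 13.4% in the mature dendritic cell-like type.

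Receptors for the other ligands had several leading types. All 8 genes of the endothelial VEGF and Notch response list were called higher in endothelial-like cells (25.0% of all genes were), among them Eng at 438 CPM, Aplnr at 276 CPM and Notch1 at 241 CPM. Most of the 8 reach 10 CPM in that type alone, and 2 of them were measured in fibroblast-like cells. Their count is thus largely set by the filter. Of the angiopoietin and Tie list 3 of 4 measured were called higher there, with Tie1 at 295 CPM and Tek, which encodes the angiopoietin receptor, at 115 CPM. Angpt1, the ligand that settles vessels, was instead a fibroblast-like gene at 13.4 CPM, and 4 of 4 measured genes of this list were called higher in fibroblast-like cells (19.6% of all genes were). Angpt1 reached 10 CPM in that type alone, and 2 genes of the list were measured in monocyte-like cells. Both counts for this list are thus largely set by the filter. The VEGF-C receptor gene Flt4 had 41.7 CPM in endothelial-like cells from a total of 31 UMIs, and Vegfd, another ligand of that receptor, 253 CPM in fibroblast-like cells. Of the adrenomedullin receptor list, Calcrl (74.7 CPM) and Ramp2 (372 CPM) were highest in endothelial-like cells and Ackr3 in fibroblast-like cells (403 CPM). Ramp3 was highest in mature dendritic cell-like cells (1266 CPM) and Ramp1 in T or NK cell-like cells (58.8 CPM). The gene Epas1, a relative of Hif1a known from endothelium, was led by endothelial-like cells at 597 CPM and fibroblast-like cells at 303 CPM.

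Other angiogenic factors came from several types. Pgf was highest in monocyte-like cells (325 CPM) and conventional dendritic cell-like cells (289.9 CPM), with overlapping intervals. Hbegf was highest in Cd163 Mrc1 macrophage-like cells (1194 CPM, log2 2.03), Pdgfb in endothelial-like (181 CPM), Cxcl12 in fibroblast-like (1393 CPM) and Il1b in neutrophil-like cells (4513 CPM). Of the semaphorin and plexin list 4 of 6 measured were called higher in endothelial-like cells (25.0% of all genes were), with the semaphorin receptor gene Plxnd1 at 325 CPM, and 4 of 6 in fibroblast-like cells (19.6%), with the ligand gene Sema3c at 217 CPM. In monocyte-like cells 3 genes of this list were measured, so both counts are partly set by the filter. Genes known to hold vessels back were not absent from these sources: 6 of 8 angiogenesis inhibitors were called higher in fibroblast-like cells (19.6% of all genes were), with Sparc at 10822 CPM and Cxcl10 at 1001 CPM, while Thbs1 led in monocyte-like cells (4193 CPM) and Pf4 in Trem2 macrophage-like cells (1912 CPM).

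Classes named in all 3 libraries let the graft be set beside the cultures, with values only. Neutrophil-like cells had Vegfa at 19.2 CPM in Co-Mac, 32.6 in VD-Mac and 134 in hSTSG, and mature dendritic cell-like cells at 2.24, 12.6 and 63.6 CPM. Nrp2 in mature dendritic cell-like cells was at 179, 213 and 575 CPM. The graft value is the highest of the 3 for these genes and classes, and not for all: Nrp2 in neutrophil-like cells was at 36.1, 22.4 and 9.39 CPM and Hif1a there at 172, 193 and 127 CPM. Nrp1 in mature dendritic cell-like cells was at 10.4, 7.78 and 2.27 CPM, the last from 1 UMI, and Vegfb there at 8.87, 8.95 and 4.55 CPM, the last from 2 UMIs. Tissue, time, preparation and depth all differ between graft and cultures and cannot be told apart.

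The genes most like 3 members were ranked by Pearson r of log2(CPM + 1) across 15 graft clusters, over 9782 genes. The clusters share a library and differ in depth, so the values are a description. For Vegfa these were Uap1l1 (0.88), Mmp19 (0.88), Tpi1 (0.87), Metrnl (0.83) and P2ry6 (0.82). For Nrp1 they were Sh3glb2 (0.93), Wdr11 (0.92), Arhgap10 (0.91), Aamdc (0.91) and Mfn2 (0.91), and for Vegfb 0610009B22Rik (0.95), Ctso (0.94), Tmtc3 (0.94), Tmem126a (0.94) and Aco1 (0.94). Among members themselves the value was 0.84 for Flt1 with Kdr, 0.21 for Vegfa with Hif1a and 0.03 for Adm with Hif1a.

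Upstream sequences were read from RefSeq on build GRCm38 for the 250 bases before each start. Of the 10 members 9 matched, with 10 starts, and Angpt2 has no entry. The letters ACGTG or GCGTG, the core of hypoxia response elements, on either strand, were found in 8 of these 10 windows and in 38.6% of 32851 promoters. The 6 letters AGGTCA, a nuclear receptor half-site of the kind the vitamin D receptor binds in pairs, were in 3 of the 10 (Vegfb, Hif1a and Nrp1) and in 14.0% of all. Matches are a description and not a sign of binding. Printed 5′ to 3′ on the strand of the gene are Vegfa, the member called between the cultures, and the 3 members with the steepest lead in a graft type among those whose window touches no annotated exon (Flt1, Vegfc and Adm). Capitals mark the hypoxia core. Vegfa lies at chr17:46032378-46032627 on the minus strand, Flt1 at chr5:147726012-147726261 on the minus strand, Vegfc at chr8:54077282-54077531 on the plus strand and Adm at chr7:110627407-110627656 on the plus strand. In GENCODE M21 the first 3 lie outside any gene and the Adm window lies in an intron of an antisense gene. The core begins 184 bases before the start in Flt1 and 90 and 54 bases before it in Adm, and these letters are not in the printed Vegfa and Vegfc windows. The window of the other Vegfa start (chr17:46025164-46025413, not printed) holds 2, which begin 218 and 211 bases before that start. That window lies wholly inside the Vegfa gene, with 218 of its 250 bases in an annotated exon. It is among the 8 windows with the core counted above.
Vegfa: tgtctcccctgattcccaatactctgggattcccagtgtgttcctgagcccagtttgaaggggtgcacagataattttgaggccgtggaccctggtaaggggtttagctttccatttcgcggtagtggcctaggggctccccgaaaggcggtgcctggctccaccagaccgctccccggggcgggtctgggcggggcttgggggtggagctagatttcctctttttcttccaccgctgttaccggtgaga
Flt1: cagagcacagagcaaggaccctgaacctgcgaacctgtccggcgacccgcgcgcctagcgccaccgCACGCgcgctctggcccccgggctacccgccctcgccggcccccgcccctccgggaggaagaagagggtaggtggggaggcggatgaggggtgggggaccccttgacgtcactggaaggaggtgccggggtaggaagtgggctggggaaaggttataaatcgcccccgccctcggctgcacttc
Vegfc: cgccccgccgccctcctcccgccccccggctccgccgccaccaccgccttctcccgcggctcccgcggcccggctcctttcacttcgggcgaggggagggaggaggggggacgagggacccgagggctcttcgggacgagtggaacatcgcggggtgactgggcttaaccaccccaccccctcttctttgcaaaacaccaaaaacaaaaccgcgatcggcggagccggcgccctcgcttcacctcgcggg
Adm: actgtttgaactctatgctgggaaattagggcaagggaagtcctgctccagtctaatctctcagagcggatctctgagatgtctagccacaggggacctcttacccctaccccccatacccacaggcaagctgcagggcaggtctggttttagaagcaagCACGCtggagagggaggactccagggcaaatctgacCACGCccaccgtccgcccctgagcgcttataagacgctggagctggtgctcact

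The labels name the build mm9 for these libraries and the paper's methods name GRCh38 (human), while the feature list holds mouse genes without coordinates. Gene positions are therefore given from GENCODE M21 on GRCm38, where 99.6% of the gene identifiers were found. Vegfa lies at chr17:46016993-46032369, Flt1 at chr5:147561604-147726011, Kdr at chr5:75932827-75978458, Adm at chr7:110627661-110629820 and Hif1a at chr12:73901375-73947530. Nrp1 lies at chr8:128358604-128503363 and Nrp2 at chr1:62703285-62818695. Angpt2 (chr8:18690263-18741562) and Vegfc (chr8:54077606-54187096) share a chromosome with Nrp1, and Vegfb lies at chr19:6982473-6987651.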

How the data were processed

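Single-cell RNA was measured in 3 libraries, 1 per group. Start values were the raw UMI counts the authors deposited (Cell Ranger 3.1.0, no normalization); hashtag antibody UMIs were left out of all totals. Filters and depths are given above. Counts were summed over cells and scaled to CPM, with exact Poisson, Clopper-Pearson and conditional binomial 95% intervals. Clusters came from R 4.3.3 (Seurat 5.3.0, Matrix 1.6.5): log normalization to 10000 UMIs, 2000 variable genes without members and listed genes, 15 principal components, 15 neighbors, resolution 0.5, with the graft's monocyte lineage clustered again. A cluster was named by the markers with the top mean of log2 ratios (5 CPM added, at least 3 markers found, mean of at least 0.5), unless its 10 leading genes held more markers of another set; how clusters are named was settled once they had been seen. Classes needed 50 cells in each culture. Doublets were kept, since Scrublet (scanpy 1.11.5) at its automatic threshold marked 1, 0 and 9 cells and so did not work; removal of the highest scores (457, 691 and 45 cells) was an alternative. The named genes are all members, each listed gene past 2-fold, the gene with most UMIs of each list, and the 5 most like Vegfa, Nrp1 and Vegfb (at least 20 CPM in a cluster), with examples from the lists in the graft chosen after their values were seen. Members and lists were chosen with earlier results of these data known. The count comparison was tested on simulated data with counting error only, which do not cover differences between cells, mice or cultures. Python 3.11.15, numpy 2.4.6, scipy 1.17.1, pandas 2.3.3, anndata 0.12.19 and matplotlib 3.10.9 were used. Hashtags were not used, since no map to mice is given, and other data of the study were not analysed here.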

Additional observations from a re-analysis of the deposited data

Results flagged for a closer look

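Some members had log2 ratios of VD3 over untreated with opposite signs in different culture classes or clusters, each with an interval that excludes 0. With 1 library per group these differences were not tested. Vegfa was at 3.03 in macrophage-like cells and -0.996 in the unnamed cluster led by Prtn3. Vegfb was at 0.44 in macrophage-like cells (153 and 186 UMIs) and -1.84 in neutrophil-like cells (30 and 7 UMIs). Nrp1 was at 3.92 in conventional dendritic cell-like cells and -2.20 in neutrophil-like cells (11 and 2 UMIs). Nrp2 was at 3.75 in the unnamed cluster led by Prtn3 and -0.69 in neutrophil-like cells. Outside the gene counts, the graft library holds 1195935 UMIs of hashtag antibodies, where both cultures have 0. They were not used here.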

How the results depend on the processing

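Vegfa was called higher with VD3 under all 9 alternatives run on the culture ratio, while a minimum of 50 CPM ends its call. Its log2 ratio of 1.99 moved to 1.62 under 5% mitochondrial UMIs, 1.504 as a mean of per-cell CPM, 1.55 with equal weight to each named class and 1.53 with cells thinned to 2000 UMIs. The count of genes called higher (167) moved to 75 with a minimum of 50 CPM and 465 at a fold of 1.5, and that of genes called lower (358) to 140 and 984, and to 207 with equal class weights; the first changes follow from fewer or more genes passing the threshold. The ratio of Vegfa in Trem2 macrophage-like over other graft cells (1.31) moved to 0.19 at resolution 0.8, 1.23 under 5% mitochondrial UMIs and 0.72 with the highest Scrublet scores removed. Where no cause is given, the cause was not tested. No called value changed sign. For the other members 52 of 81 culture ratios and 53 of 63 graft ratios stayed inside their counting intervals. Of the library levels, counted over all members with Vegfa, 103 of 230 did. Scaling by the median of ratios shifted the cultures by -0.08 on the log2 scale and gives no levels for the graft, and class weights apply to the cultures alone. No paired analysis was possible because the labels pair no samples. With 1 library per group, intervals cover counting error and not differences between mice or cultures. Low UMI counts limit Kdr, Angpt2 and Vegfc in the cultures, and types of 13 to 38 cells rest on few cells. Free RNA from other cells was not estimated.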

Other observations

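Some listed genes that stayed under 10 CPM in both cultures, chosen here after their values were seen, differed widely in UMIs. Robo4, a receptor gene known from endothelium, had 2 UMIs in Co-Mac and 244 in VD-Mac, or 0.0151 and 2.10 CPM (log2 7.12, 5.25 to 10.17). Sparc, a matrix protein gene, had 112 and 1 UMIs (-6.62, -11.94 to -4.11). Epas1, a relative of Hif1a, was at 0.181 and 0.902 CPM (2.32, 1.67 to 3.02), Angptl4 at 4.71 and 1.06 CPM (-2.15), Calcrl at 8.18 and 3.18 CPM (-1.36) and Cxcl10 at 1.70 and 5.42 CPM (1.67). None of these meets the level for a call.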
